A study of Homo sapiens with 32 samples.

Results

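The miR-17-92 cluster is a group of 6 miRNA hairpins cut from 1 primary transcript, the non-coding host gene MIR17HG. Its members are mir-17, mir-18a, mir-19a, mir-20a, mir-19b and mir-92a, named here in the order in which they follow each other along the RNA. All 6 were found by name among the 1513 miRNA rows of a read-count table from 293T (CRL-3216), a readily transfected human line of embryonic kidney origin that expresses the large T antigen of SV40. The table covered 32 small RNA libraries from 8 cell clones, which the labels name as the batch. Of these, 4 clones were WT (52, 55, 57 and 67), and 4 had the genotype DGCR8 delta103-126Q (30, 34, 42 and 43), in which prime editing removed the reported contact site of the protein ERH. The edited clones are called BSdel clones here. Each clone was transiently transfected with each of 4 short hairpin RNA (shRNA) vectors, control shRNA_1, control shRNA_2, shERH_1 and shERH_2. Puromycin at 2 µg/ml was given from 24 h after transfection, and cells carrying the vector's fluorescent marker were sorted on day 5. Each QIAseq miRNA library was built from 100 ng out of 400 ng of total RNA to which spike-in RNAs had been added.

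DROSHA, a nuclease, and DGCR8, its RNA-binding partner, form the Microprocessor, which releases hairpins from primary transcripts in the nucleus. DICER then cuts each hairpin to a mature miRNA that guides Argonaute proteins to messenger RNAs, largely through its seed, the bases next to the 5′ end. ERH is a small conserved protein that binds DGCR8 and is known to help the Microprocessor cut poor hairpins that lie next to good ones. The miR-17-92 cluster is a well-known oncogenic miRNA locus, induced by MYC and abundant in dividing cells. Its hairpins start out in the same RNA, and their mature products are known to accumulate to different levels after cutting, loading and decay. miR-17 and miR-20a restrain cell-cycle and TGF-beta signalling genes such as CDKN1A and TGFBR2. miR-92a is known for targets such as the integrin gene ITGA5, and miR-19 is known as a main oncogenic component of the cluster.

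The main mature miRNAs of the cluster, printed with the seed (bases 2 to 8) in capitals because the seeds sort the 6 members into 4 families, are the following. RefSeq entries on GRCh38.p14 were matched for all 6 rows.
hsa-miR-17-5p: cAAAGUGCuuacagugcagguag
hsa-miR-20a-5p: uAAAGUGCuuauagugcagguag
hsa-miR-18a-5p: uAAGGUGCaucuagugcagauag
hsa-miR-19a-3p: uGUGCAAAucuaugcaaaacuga
hsa-miR-19b-3p: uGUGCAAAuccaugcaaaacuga
hsa-miR-92a-3p: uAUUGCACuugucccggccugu
miR-17 and miR-20a share a seed and differ at 2 positions, C1U and C12U, counted from 1 at the 5′ end with the base of miR-17 first. miR-19a and miR-19b share a seed and differ at 1 position, U11C, with the base of miR-19a first. Among the 2370 mature miRNAs in the RefSeq table, the miR-19 seed was found in these 2 alone, while the seed of miR-17 was found in 8, that of miR-18a in 3 and that of miR-92a in 6. The rows count a whole hairpin, so reads of both arms are added together.

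The hairpins lie at chr13:91350605-91351391 on the plus strand (GRCh38), a stretch of 787 bases. MIR17HG (ENSG00000215417.12, a processed transcript in GENCODE release 29) runs from 91347820 to 91354579. All 6 hairpins are exonic in its transcripts MIR17HG-202 and MIR17HG-203 and intronic in the other one of its 3 transcripts. The gaps between neighbours are 62, 69, 92, 56 and 35 bases, the widest being between mir-19a and mir-20a and the narrowest between mir-19b and mir-92a. RNAfold gave the mir-18a hairpin a minimum free energy of -21.1 kcal/mol, against -31.0 to -38.7 kcal/mol for the other 5. The mir-19a hairpin had the lowest of the 6, -38.7 kcal/mol, and that of mir-19b on the same chromosome came next with -38.5 kcal/mol. These energies are not corrected for hairpin length. Per base, mir-19a was again lowest at -0.472 kcal/mol, followed by mir-92a at -0.4551 and mir-19b at -0.4425 (hairpins on chromosome 13). The rows mir-19b and mir-92a each also cover a second hairpin, MIR19B2 at chrX:134169671-134169766 and MIR92A2 at chrX:134169538-134169612, both on the minus strand and exonic in AC002407.1. Reads of these mature sequences cannot be told apart between the 2 chromosomes.

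The mir-19a and mir-19b hairpins are shown because their mature arms (capitals) differ at 1 base while the results below set their rows apart.
MIR19A: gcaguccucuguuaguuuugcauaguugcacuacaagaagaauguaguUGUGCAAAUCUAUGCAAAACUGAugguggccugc
MIR19B1: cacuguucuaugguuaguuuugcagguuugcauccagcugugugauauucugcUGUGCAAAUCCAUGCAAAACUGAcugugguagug
Over the whole hairpin, 57 of 87 aligned positions (65.5%) were identical, so most of the difference lies outside the mature arm.

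Libraries held 1318923 to 6222790 miRNA counts, and every member had between 6531 and 458600 counts in every library. The 2 libraries of an arm were summed for each clone, which gave 16 sums, and the clone was the replicate. Values are given as CPM, counts relative to library size after TMM scaling of the miRNA rows, and changes as log2 fold changes from edgeR with a standard error (SE). A change was called at a Benjamini-Hochberg adjusted p under 0.05 over all rows tested. The 4 libraries of clone 57 stood apart on the second principal component over 314 rows (14.6% of the variance), with scores of 9.06 to 10.81 against -5.15 to 5.09 in the other 28. The depth of the ERH knockdown and the DGCR8 edit themselves were not analysed here. In bulk RNA, fewer cells with a miRNA and less of it per cell cannot be told apart, and reads do not separate a change in processing from a change in the primary transcript.

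The cluster was among the most abundant products in these cells. Its 6 rows together took 20.8% ± 3.15 (SD, n = 4) of miRNA counts in WT clones with control shRNAs, 19.0% ± 3.14 (SD, n = 4) in WT clones with ERH shRNAs, 19.8% ± 2.51 (SD, n = 4) in BSdel clones with control shRNAs and 18.2% ± 2.46 (SD, n = 4) in BSdel clones with ERH shRNAs. These ranges overlapped between all 4 groups. By total count, mir-92a ranked 2, mir-20a 3 and mir-19b 4 among the 1513 rows, while mir-19a ranked 14, mir-17 25 and mir-18a 42.

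Although the hairpins share a transcript, their read counts differed widely. In WT clones with control shRNAs, mir-92a had 88346 ± 25034 CPM (SD, n = 4), mir-20a 69533 ± 18985, mir-19b 64738 ± 21772, mir-19a 23734 ± 9943, mir-17 10949 ± 1802 and mir-18a 5836 ± 743. The mature products are all 22 or 23 bases long, so no length correction was applied. The ranges of mir-92a, mir-20a and mir-19b overlapped, and the order among these 3 does not exceed their spread. mir-19a (13434 to 34453 CPM) lay below those 3 and above mir-17 (8253 to 11950 CPM), with mir-18a (4791 to 6411 CPM) lowest. mir-17 and mir-20a carry the same seed but differed in counts, with mir-17 at 4.18% ± 0.21 (SD, n = 4) of the cluster's reads and mir-20a at 26.1% ± 3.15. Efficiencies of ligation and amplification for each sequence were not measured, so a difference between 2 rows of one library is a difference in reads.

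**Figure D1:**
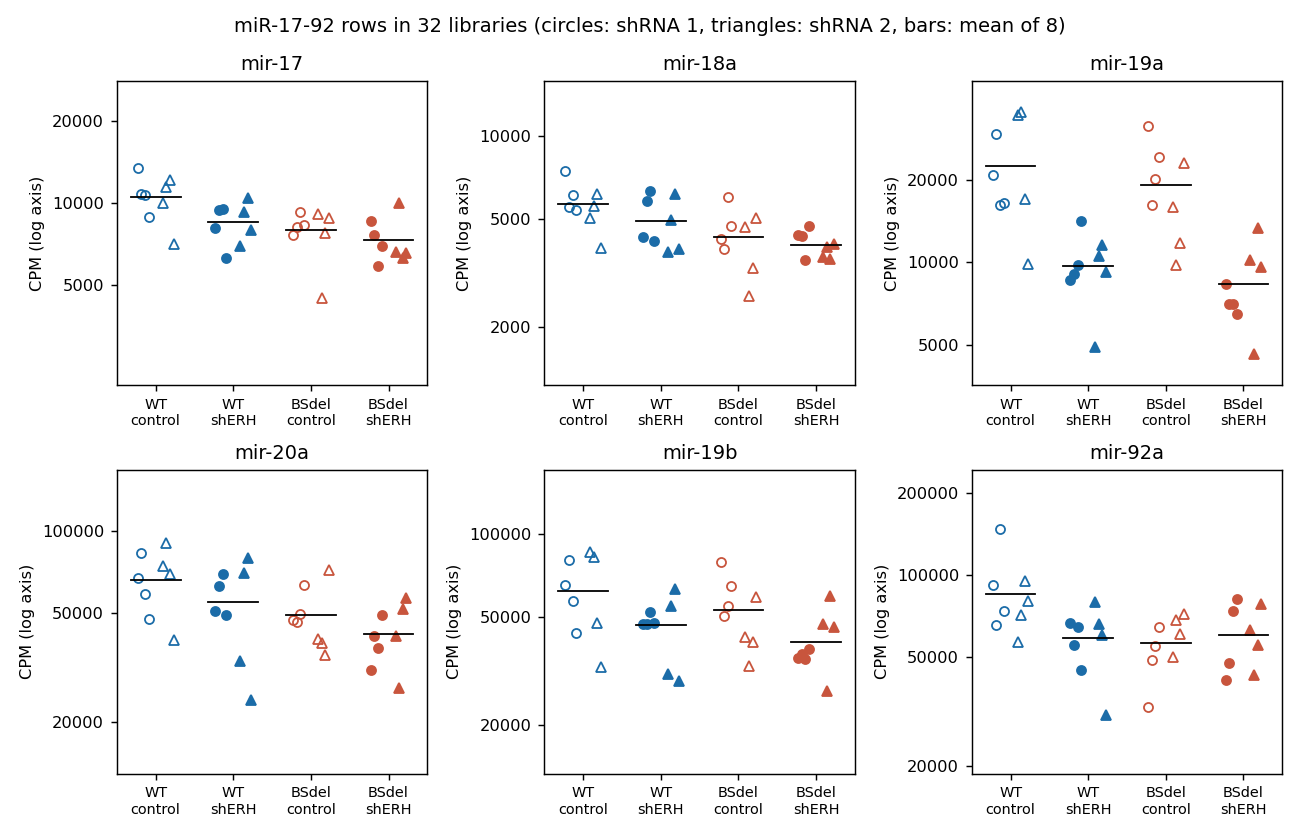
CPM (log axis) of each member in all 32 libraries, by genotype and shRNA arm; circles are the first shRNA of an arm, triangles the second, and bars the mean of the 8 libraries. mir-19a is the row in which libraries with ERH shRNAs sit furthest below those with control shRNAs, and mir-92a is highest in the WT control libraries.

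The first comparison set the ERH shRNAs against the control shRNAs within clones and addressed how the cluster responds when this DGCR8 partner is depleted. The response was led by mir-19a, which had the largest decrease of the 6 members. In WT clones, mir-19a went from 29670 to 7474 CPM in clone 52, from 34453 to 9370 in clone 55, from 17378 to 11218 in clone 57 and from 13434 to 12695 in clone 67. In BSdel clones it went from 23928 to 9365 CPM in clone 30, from 11758 to 5275 in clone 34, from 16071 to 9925 in clone 42 and from 23016 to 7374 in clone 43. Every clone had less mir-19a with ERH shRNAs, which held for 52 of 667 rows tested (7.8%). In WT clones every ERH sum lay below every control sum, as in 7.01% of rows, and the same was true in BSdel clones, as in 3.32% of rows.

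Over all 8 clones, mir-19a fell by 1.21 ± 0.15 on the log2 scale (SE; adjusted p = 1.87e-06, edgeR). The change was -1.16 ± 0.26 in the 4 WT clones (adjusted p = 0.00244, edgeR) and -1.25 ± 0.14 in the 4 BSdel clones (adjusted p = 0.000246, edgeR). The difference between these effects was -0.01 ± 0.34 on the log2 scale (SE; adjusted p = 0.990, edgeR interaction test), so a difference of that size in either direction was not resolved. The 2 shRNA pairs put the genotypes in opposite order. The first pair gave -1.10 in WT and -1.72 in BSdel clones, and the second gave -1.43 and -0.87. Single WT clones ranged widely, from -1.99 in clone 52 to -0.08 in clone 67, while BSdel clones ran from -1.64 to -0.70. The 2 WT clones with the smallest changes, 57 and 67, had the lowest control levels and the highest ERH levels of mir-19a. Among the 20 rows above a mean of 10000 CPM, mir-19a had the lowest fold change, and among all 667 rows it ranked 24 from the lowest. Both shRNA pairs gave the decrease: the first ERH shRNA against the first control shRNA gave a mean of -1.31 ± 0.60 (SD, n = 8) with 8 of 8 clones lower, and the second pair gave -1.01 ± 0.96 (SD, n = 8) with 7 of 8 clones lower. The call in WT clones was lost with the second pair alone (-1.43, adjusted p = 0.0543, edgeR), with DESeq2 (-1.29, adjusted p = 0.0797) and with spike-in scaling (-0.55, adjusted p = 0.444, edgeR). Without clone 52, the WT value was -0.81 (adjusted p = 0.00015, edgeR), although the clones left, 55, 57 and 67, changed by -1.88, -0.63 and -0.08.

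**Figure D2:**
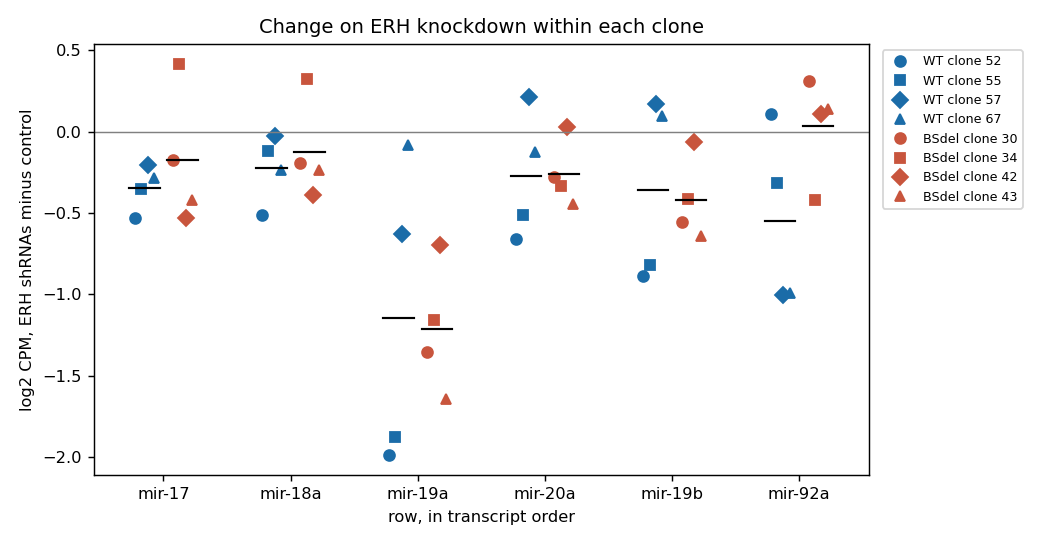
Change on ERH knockdown within each clone, as log2 CPM with ERH shRNAs minus log2 CPM with control shRNAs, for the 6 members in transcript order (blue: WT clones, red: BSdel clones, bars: mean of 4 clones). mir-19a is below 0 in all 8 clones, from -1.99 to -0.08, while mir-92a lies on both sides of 0.

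The other members moved less. Of the 6 rows, 4 were called lower over all clones and none higher, where 36.6% of all 667 rows were called, 16.5% of all rows lower and 20.1% higher. Beside mir-19a these were mir-19b, which fell by 0.42 ± 0.11 (SE; adjusted p = 0.00499, edgeR), mir-20a, which fell by 0.30 ± 0.10 (adjusted p = 0.0208, edgeR), and mir-17, which fell by 0.30 ± 0.11 (adjusted p = 0.0318, edgeR). mir-18a gave -0.21 ± 0.10 (adjusted p = 0.118, edgeR) and mir-92a -0.29 ± 0.14 (adjusted p = 0.0967, edgeR). The median over the 6 members was -0.30, against 0.06 over all 667 rows. Abundant rows give another background. Among the 20 rows above a mean of 10000 CPM, mir-19b ranked 2 from the lowest, but mir-20a ranked 9 and mir-92a 10, near the middle.

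mir-19b, the seed partner of mir-19a, went from 79673 to 43050 CPM in clone 52, from 85771 to 48633 in clone 55, from 54166 to 60839 in clone 57 and from 39344 to 42075 in clone 67. In BSdel clones it went from 61275 to 41751 CPM in clone 30, from 37820 to 28355 in clone 34, from 48566 to 46375 in clone 42 and from 59971 to 38459 in clone 43. It was lower in 6 of 8 clones, and the 2 clones in which it was higher, 57 and 67, were those in which mir-19a moved least. mir-20a was also lower in 6 of 8 clones, with changes from -0.66 in clone 52 to 0.21 in clone 57. mir-17 and mir-18a were lower in 7 of 8 clones, and in both the exception was BSdel clone 34, where mir-17 went from 5721 to 7645 CPM and mir-18a went from 2935 to 3671 CPM.

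With any 1 clone left out, the size of these smaller changes stayed close while the call was often lost: mir-17 lay between -0.39 and -0.24, mir-20a between -0.37 and -0.24 and mir-19b between -0.51 and -0.35. Without clone 55, the mir-19b value was -0.35 (adjusted p = 0.0671, edgeR). Over all clones, the first shRNA pair gave -0.57 for mir-19b (adjusted p = 0.00336, edgeR) and the second -0.27 (adjusted p = 0.318, edgeR). The mir-20a call was lost without any one of clones 30, 43, 52 and 55 (values of -0.28, -0.26, -0.24 and -0.26, adjusted p of 0.0635, 0.0843, 0.0644 and 0.127, edgeR), and the mir-17 call without any one of clones 30, 42, 43, 52, 55 and 57 (values of -0.31 to -0.24, adjusted p of 0.0518 to 0.119, edgeR). mir-18a was called without clone 34 (-0.28, adjusted p = 0.0443, edgeR) and mir-92a without clone 30 (-0.35, adjusted p = 0.0453, edgeR).

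mir-92a, the last hairpin, behaved differently from clone to clone. In WT clones it went from 74667 to 80415 CPM in clone 52, from 72178 to 58018 in clone 55, from 125474 to 62568 in clone 57 and from 81063 to 40774 in clone 67. In BSdel clones it went from 42655 to 53033 CPM in clone 30, from 53985 to 40269 in clone 34, from 60647 to 65273 in clone 42 and from 66618 to 73258 in clone 43. The WT clones with the largest drops in mir-92a, 57 and 67, were those with the smallest drops in mir-19a. Of the 8 clones, 4 were lower and 4 higher, and 3 of the 4 higher ones were BSdel clones.

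Within WT clones alone, 2 members were called, mir-19a and mir-92a, both lower, where 31.3% of 613 rows were called, 10.4% lower and 20.9% higher. mir-92a fell by 0.56 ± 0.18 (SE; adjusted p = 0.0214, edgeR), and this was lost without clone 57 (-0.42, adjusted p = 0.187, edgeR) or clone 67 (-0.39, adjusted p = 0.195, edgeR). Within BSdel clones, 2 members were called, mir-19a and mir-19b, both lower, where 10.3% of 633 rows were called, 6.0% lower and 4.27% higher. mir-19b fell by 0.46 ± 0.11 (SE; adjusted p = 0.0327, edgeR), and this was lost without clone 30 (-0.41, adjusted p = 0.134, edgeR) or clone 43 (-0.40, adjusted p = 0.122, edgeR). The shRNA pairs differed for mir-19b in BSdel clones. The first pair gave -0.84 (adjusted p = 0.00366, edgeR) and the second -0.15 (adjusted p = 0.733, edgeR). mir-92a in BSdel clones gave -0.0015 ± 0.13 (adjusted p = 0.995, edgeR). mir-17 and mir-20a, called over all clones, were called in neither genotype alone in the main fit: mir-17 gave -0.36 in WT and -0.21 in BSdel clones, and mir-20a gave -0.28 and -0.29. In WT clones mir-17 was called with DESeq2 (-0.49, adjusted p = 0.0135) and with the first shRNA pair (-0.52, adjusted p = 0.0121, edgeR). The first pair also called mir-20a in BSdel clones (-0.47, adjusted p = 0.0281, edgeR). The second pair called neither. It gave -0.35 for mir-17 in WT clones and -0.24 for mir-20a in BSdel clones (adjusted p of 0.239 and 0.598, edgeR). With spike-in scaling mir-17 in WT clones was at 0.26, and with total counts at -0.02.

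The direction of the smaller changes depended on the scale. With spike-in scaling the median over all 667 rows moved from 0.06 to 0.52, and with total miRNA counts to 0.33, so that calls went from 134 higher and 110 lower to 233 higher and 22 lower, and to 210 higher and 36 lower. mir-19a was called lower on both scales, at -0.77 and -0.94. On the spike-in scale the other 5 members lay between 0.03 and 0.25, above 0 but below the median of all rows, and none of them was called. In WT clones, calls went from 128 higher and 64 lower to 170 and 11 with spike-ins, 184 and 27 with total counts and 110 and 117 with DESeq2, and in BSdel clones from 27 higher and 38 lower to 85 and 17 with spike-ins and 86 and 23 with total counts. On the spike-in scale no member was called in WT clones, where mir-92a was at 0.051 and the median of all rows at 0.71, and mir-19a alone was called in BSdel clones, at -0.96. With DESeq2 size factors over all clones, 4 members were called, at -0.35 for mir-17, -1.27 for mir-19a, -0.36 for mir-20a and -0.48 for mir-19b.

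**Figure D3:**
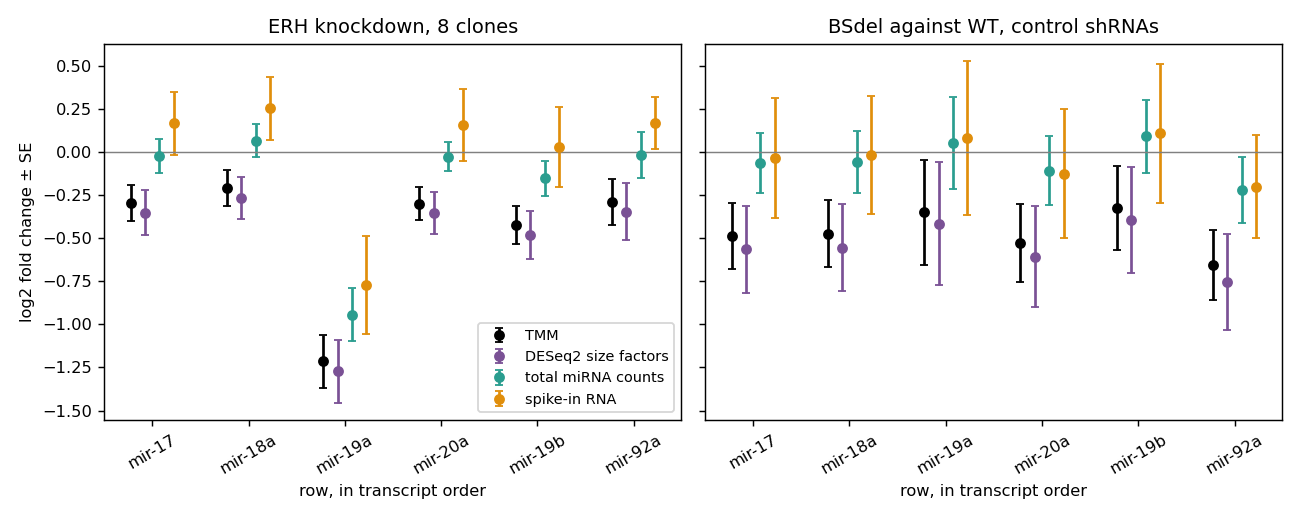
Log2 fold change ± SE of each member under 4 scalings, for ERH knockdown in 8 clones (left) and for BSdel against WT clones with control shRNAs (right). mir-19a stays below 0 on the left under all 4 scalings, from -1.27 to -0.77, while the other members cross 0 with spike-in scaling.

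The second comparison set BSdel against WT clones under control shRNAs and addressed how the cluster responds when DGCR8 lacks the reported ERH contact site. All 6 members had lower point estimates in BSdel clones, as did 51.3% of all rows. Of the 6, 1 was called, mir-92a, where 25.9% of 536 rows were called, 7.09% lower and 18.8% higher. mir-92a was at 74667, 72178, 125474 and 81063 CPM in WT clones 52, 55, 57 and 67, and at 42655, 53985, 60647 and 66618 CPM in BSdel clones 30, 34, 42 and 43. Its groups did not overlap, which held for 10.1% of rows. mir-92a fell by 0.65 ± 0.20 (SE; adjusted p = 0.0325, edgeR).

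mir-18a likewise lay lower in every BSdel clone than in any WT clone, with 6321, 5822, 6411 and 4791 CPM in WT clones 52, 55, 57 and 67 and 4547, 2935, 4631 and 4728 CPM in BSdel clones 30, 34, 42 and 43. The closest values, 4791 and 4728 CPM, hardly differ, and the change of -0.47 ± 0.20 did not pass (adjusted p = 0.0877, edgeR). mir-17 gave -0.48 ± 0.19 (adjusted p = 0.0763, edgeR) and mir-20a -0.53 ± 0.23 (adjusted p = 0.103, edgeR), with overlapping groups. With both control shRNAs summed, the miR-19 rows differed least, with -0.35 ± 0.31 for mir-19a (adjusted p = 0.412, edgeR) and -0.32 ± 0.24 for mir-19b (adjusted p = 0.343, edgeR). This order did not hold for each vector. Control shRNA_1 alone gave 0.08 for mir-19a, -0.06 for mir-19b and -1.01 for mir-92a. With control shRNA_2 alone these were -0.81, -0.63 and -0.40, with mir-19a the lowest of the 6 members and mir-92a nearest to no change. The median over the 6 members was -0.48, against -0.03 over all 536 rows.

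The mir-92a call was lost without clone 30, 34, 42, 57 or 67, with the value moving most without clone 57, to -0.38 (adjusted p = 0.140, edgeR), and the values without the other 4 lying between -0.69 and -0.51 (adjusted p of 0.0571 to 0.0996, edgeR). Without clone 43, mir-20a was called as well (-0.72, adjusted p = 0.0419, edgeR). Scaling by spike-ins or by total miRNA counts moved the median of all rows to 0.42 and 0.39, the calls from 101 higher and 38 lower to 134 higher and 0 lower, and to 154 higher and 4 lower (DESeq2 gave 108 higher and 69 lower), and mir-92a to -0.20 and -0.22, neither called. On the spike-in scale the members lay between -0.20 and 0.11, with 4 of 6 below 0. Clones are nested in genotype, so the deletion and differences among single clones cannot be told apart beyond the 4 clones on each side.

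**Figure D4:**
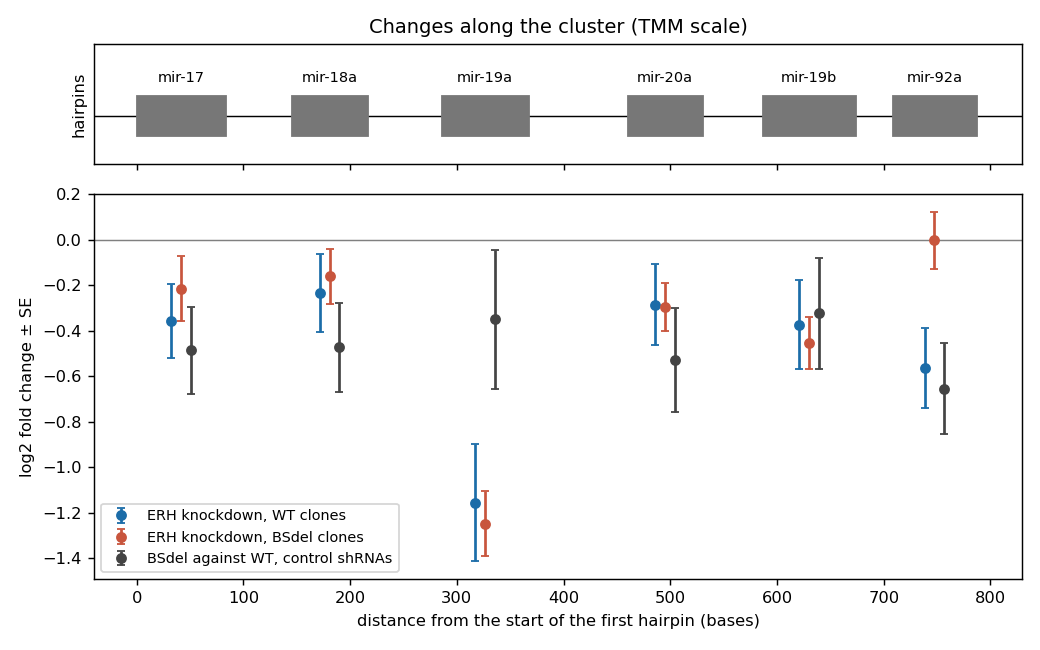
Log2 fold changes ± SE (TMM scale) plotted at the distance of each hairpin from the start of the mir-17 hairpin, in bases, below a map of the 6 hairpins to scale. The knockdown changes in WT and BSdel clones dip to -1.16 and -1.25 at mir-19a, the third hairpin, and part at mir-92a, the last, at -0.56 and -0.0015. BSdel against WT clones, with both control shRNAs summed, runs between -0.65 and -0.32 without such a dip. For single vectors, not drawn, mir-19a was at 0.08 with control shRNA_1 and at -0.81, the lowest of the 6, with control shRNA_2.

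With ERH shRNAs in both genotypes, no member was called, and 0 of 569 rows were (0.0%) with edgeR. 87 rows had an unadjusted p under 0.05, and DESeq2 called 11 rows, none of them a member. All 6 members again had lower point estimates in BSdel clones, as did 45.9% of all rows. With spike-in scaling and with total counts, 5 of 6 were lower, as were 43.1% and 28.3% of all rows. On these scales mir-92a was at 0.04 and 0.16. mir-20a gave -0.51 ± 0.23 (SE; adjusted p = 0.320, edgeR), mir-18a -0.39 ± 0.19 (adjusted p = 0.347, edgeR), mir-19a -0.34 ± 0.24 (adjusted p = 0.516, edgeR), mir-19b -0.31 ± 0.20 (adjusted p = 0.465, edgeR), mir-17 -0.31 ± 0.19 (adjusted p = 0.463, edgeR) and mir-92a -0.03 ± 0.22 (adjusted p = 0.951, edgeR). mir-18a was the member whose groups did not overlap, as in 2.64% of rows, with 4073 to 6292 CPM in WT clones and 3532 to 4015 CPM in BSdel clones.

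The interaction test asked whether the knockdown effect differs between genotypes. No member passed, and 0 of 667 rows were called (0.0%) with edgeR, with 127 rows at an unadjusted p under 0.05 and 19 rows called by DESeq2, none of them a member. The member furthest from 0 was mir-92a, whose knockdown effect was higher by 0.64 ± 0.25 on the log2 scale in BSdel than in WT clones (SE; adjusted p = 0.214, edgeR). It was called without clone 52 (0.86, adjusted p = 0.0355, edgeR) and with the first shRNA pair alone (0.87, adjusted p = 0.0279, edgeR), and it was 0.41 without clone 57 and 0.42 without clone 67. Whether mir-92a answers ERH knockdown differently in the 2 genotypes was therefore not resolved by 4 clones of each.

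The 2 control shRNAs gave the background between vectors. No member was called between them, and 0 of 571 rows were called (0.0%) with edgeR, with 48 rows at an unadjusted p under 0.05 and 1 row called by DESeq2, not a member. The second control shRNA gave -0.26 ± 0.16 for mir-19a (SE; adjusted p = 0.634, edgeR), -0.28 ± 0.13 for mir-19b (adjusted p = 0.551, edgeR) and -0.26 ± 0.13 for mir-18a (adjusted p = 0.551, edgeR), the other 3 lying between -0.14 and 0.06. The mir-19a change on ERH knockdown, -1.21, was larger in size than any of these, and the knockdown changes of the other 5 members ran from -0.42 to -0.21. These vector values join both genotypes. In BSdel clones mir-19a averaged 23099 CPM with control shRNA_1 and 15172 with control shRNA_2, and mir-19b 62351 and 43725. In WT clones mir-19a averaged 20768 and 24301 CPM, and mir-19b 61597 and 62066. The gap between control vectors within 1 genotype was not tested.

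Ratios within the cluster need no scaling, since both rows come from the same library. Relative to mir-17, the first hairpin, the log2 ratio of mir-19a went from 1.12 ± 0.39 with control shRNAs to 0.21 ± 0.46 with ERH shRNAs (SD, n = 8 clones). By clone it went from 1.31 to -0.15 in clone 52, from 1.56 to 0.04 in clone 55, from 0.54 to 0.12 in clone 57 and from 0.70 to 0.90 in clone 67. In BSdel clones it went from 1.48 to 0.30 in clone 30, from 1.04 to -0.54 in clone 34, from 0.88 to 0.71 in clone 42 and from 1.47 to 0.25 in clone 43. It was lower in 7 of 8 clones, clone 67 being the exception, and 5 of the 8 clones lost more than 1 log2 unit.

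The mean change of the mir-19a ratio was -0.92 ± 0.69 (SD, n = 8; p = 0.0234, exact sign-flip permutation test, two-sided; adjusted p = 0.469 over 20 ratio tests). The ratio did not pass the adjustment, but the smallest p these 256 sign flips can give is 0.00781. Over 20 tests, 1 ratio changing alone could not have passed, so this outcome decides nothing. The ratios of mir-18a, mir-20a, mir-19b and mir-92a to mir-17 changed by 0.09 ± 0.11, -0.0047 ± 0.40, -0.13 ± 0.48 and 0.0017 ± 0.68 (SD, n = 8 each), with exact permutation p from 0.0781 to 1.0. With mir-20a as the denominator, the mir-19a change was -0.91 ± 0.45 (SD, n = 8; p = 0.0156, exact sign-flip permutation test; adjusted p = 0.312).

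The mir-18a to mir-17 ratio varied least, at -0.90 ± 0.07 with control shRNAs and -0.81 ± 0.14 with ERH shRNAs (SD, n = 8), and the members' log2 CPM over the 16 sums ran most closely together for this pair (r = 0.94, given as a description, since the sums share clones). mir-19a and mir-92a were the pair with the lowest correlation (r = 0.24). Set against each other, the 2 miR-19 rows parted in every clone: the mean change of the log2 ratio of mir-19a to mir-19b was -0.79 ± 0.30 (SD, n = 8), with 8 of 8 clones lower. That pair was picked after its values were seen, so it is given without a test. Under control shRNAs the same ratio differed by -0.02 between BSdel and WT clones.

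**Figure D5:**
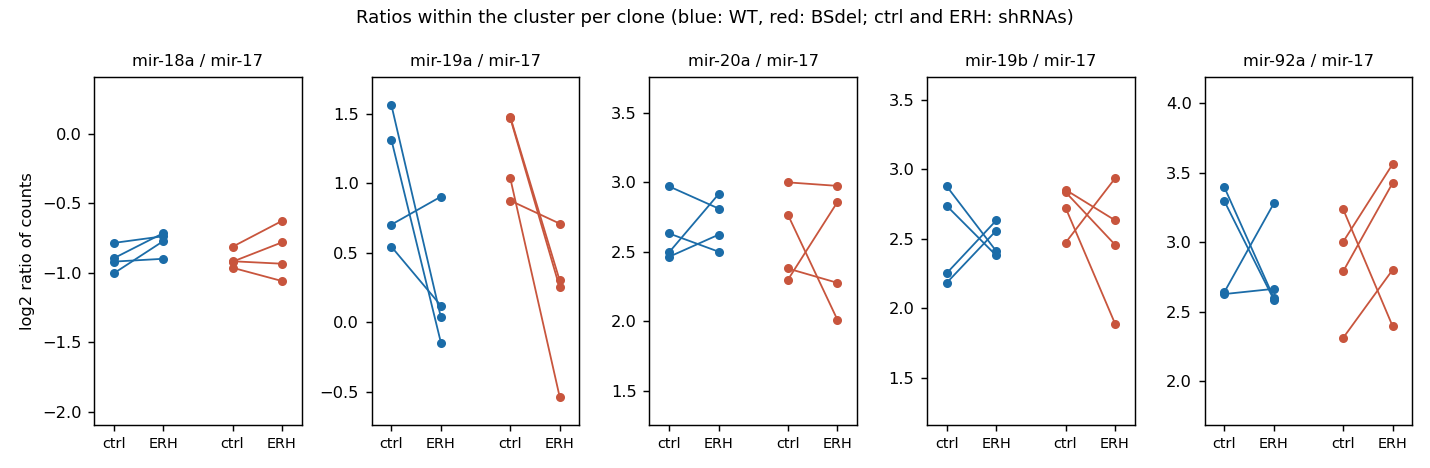
Log2 ratio of summed counts of each member to mir-17 in each clone, with control shRNAs (ctrl) and ERH shRNAs (ERH), lines joining the sums of 1 clone (blue: WT, red: BSdel); the 5 panels span the same range of log2 units at different levels. The mir-19a ratio is lower with ERH shRNAs in 7 of 8 clones, with a mean change of -0.92, and each of the other ratios is higher in some clones and lower in others.

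No ratio passed the test between genotypes. Under control shRNAs the differences, BSdel minus WT, were -0.0023 for mir-18a, 0.19 for mir-19a, -0.03 for mir-20a, 0.21 for mir-19b and -0.15 for mir-92a, with exact permutation p from 0.343 to 0.971 over 70 arrangements. Under ERH shRNAs they ran from -0.18 for mir-20a to 0.26 for mir-92a, with exact permutation p from 0.400 to 1.0. In the interaction, the mir-92a ratio changed by -0.21 in WT and 0.21 in BSdel clones (exact permutation p = 0.486), and the mir-19a ratio by -0.80 in WT and -1.03 in BSdel clones (exact permutation p = 0.686). The smallest p that 70 arrangements allow is 0.0286. Adjustment over 20 ratio tests takes that above 0.05 unless most of the 20 reach it. These genotype tests could therefore hardly have called a ratio, and that none passed decides nothing.

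As shares of the cluster's reads, mir-19a went from 8.83% ± 2.65 to 5.55% ± 2.06 (SD, n = 4) in WT clones and from 9.89% ± 2.20 to 5.12% ± 0.94 (SD, n = 4) in BSdel clones. mir-92a went from 34.4% ± 10.4 to 31.7% ± 7.10 (SD, n = 4) in WT clones and from 30.3% ± 5.59 to 37.0% ± 3.04 (SD, n = 4) in BSdel clones. In WT control sums, the mir-92a share was 44.4% in clone 57 and 42.1% in clone 67 but 27.0% in clone 52 and 24.0% in clone 55, so the WT clones fell into pairs on this measure.

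The cluster has paralogues, copies that arose by duplication and share its seeds. The miR-106a-363 cluster on chromosome X holds mir-106a, mir-18b, mir-20b, the second copies of mir-19b and mir-92a, and mir-363. Its rows without a copy on chromosome 13 had few reads here. mir-106a had a median of 0.513% of the mir-17 counts per library (range 0.295% to 0.813%), mir-18b 0.136% of mir-18a and mir-20b 0.0331% of mir-20a. These pairs are close in sequence: miR-106a differs from miR-17 by C1A, miR-18b from miR-18a by A20U, and miR-20b from miR-20a by U1C and U10C. How reads with a sequencing error at these positions were assigned is not given in the sources used here.

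The miR-106b-25 cluster, with mir-106b, mir-93 and mir-25, was well expressed, with mir-93 at 65874 ± 2805 CPM and mir-25 at 45745 ± 6510 CPM (SD, n = 4) in WT clones with control shRNAs. mir-106b had 1877 ± 411 CPM (SD, n = 4). Of 10 listed relatives by cluster or seed, 8 had enough counts to be tested, and mir-363 and mir-367 did not. On ERH knockdown over all clones, all 8 had point estimates below 0 on the TMM scale, as did 46.2% of all rows, and 2 were called lower, as were 16.5% of all rows. These were mir-18b, by -0.86 ± 0.28 (SE; adjusted p = 0.0192, edgeR), and mir-93, by -0.26 ± 0.09 (adjusted p = 0.0322, edgeR). Neither was called with spike-in scaling or total counts, where mir-93 was at 0.20 and 0.01 and mir-18b at -0.42 and -0.59, and 1 and 2 of the 8 relatives were below 0. mir-18b averaged 10.8 CPM in WT control sums, so this change rests on few reads. In BSdel clones under control shRNAs, 7 of 8 were below 0 on the TMM scale, as were 51.3% of all rows, and 1 was called lower, as were 7.09% of all rows. This was mir-93, a seed relative of mir-17, at -0.59 ± 0.14 (SE; adjusted p = 0.0120, edgeR), and it was at -0.12 with spike-in scaling and -0.17 with total counts, not called in either. The tested relatives that share the mir-92a seed are mir-92b, mir-25 and mir-32. In the same comparison they gave -0.49 ± 0.31, -0.11 ± 0.15 and 0.14 ± 0.30 (adjusted p of 0.251, 0.621 and 0.754, edgeR).

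The rows whose log2 CPM over the 16 sums was most like the mean profile of the 6 members, among 308 other rows, were mir-106a (r = 0.87), mir-4521 (0.86), mir-216a (0.85), mir-26a (0.85) and mir-551b (0.84). These correlations describe 16 sums that share clones and scaling. mir-93, mir-106b and mir-25 ranked 60, 139 and 146 on the same measure, with r of 0.59, 0.15 and 0.10.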

How the data were processed

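Read counts per miRNA precursor and per spike-in RNA were taken as the authors deposited them, as 1 table with a column per library; the file header names total read counts. The submitters' processing notes name SAMtools; the aligner, annotation, genome build and use of molecular identifiers are not given in the sources used here, so amplification copies may be among the counts. No column lacked a sample. Members, relatives and tests were chosen with earlier results of these data known. Named rows were the 6 members, 10 relatives and the 5 rows most like the cluster's mean profile.

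For every clone the 2 libraries of each arm were added up. edgeR 4.0.16 (R 4.3.3) was run with filterByExpr, TMM scaling and the quasi-likelihood test (glmQLFit, glmQLFTest), with the clone as a block for knockdown, and p-values were adjusted over all rows tested. Fits for knockdown over all clones and for the deletion under control shRNAs were tested on simulated data. The simulation held no differences between clones, and its changes were larger than most of those reported here. It therefore does not speak for smaller changes or for clones that differ. Arms are paired because, per the labels, every clone received all 4 vectors; within a clone, the departures of both sums from the group means correlated at r of 0.42 to 0.86 over 314 rows. Nothing states that clones were grown or transfected separately in time, so p-values speak for these clones alone. In edgeR the variance of a row is drawn toward that of other rows. Its SE and p therefore do not measure that row's spread between clones alone. For mir-19a in WT clones the SE was 0.26, while the within-clone changes had an SD of 0.94 (n = 4). Library pairs within groups differed by a chi-square of at least 75.4 per degree of freedom, and none was treated as a copy. Log2 ratios used counts plus 0.5 and exact permutation tests in SciPy 1.17.1. Spike-in totals ran from 9139 to 33090 counts per library. Hairpin energies came from RNAfold 2.7.2, and positions and sequences from RefSeq (GRCh38.p14) and GENCODE release 29. Alternatives were DESeq2 1.42.0, spike-in and total scaling, other count filters, single shRNA pairs, single libraries, no replicate block, other ratio denominators and leaving out each clone.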

Additional observations from a re-analysis of the deposited data

Results flagged for a closer look

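In 4 of 24 sets of 4 clones (6 members in 4 groups), 1 clone lay further from its neighbour than Dixon's 95% limit allows; chance flags about 1 in 20 such sets. In WT clones with control shRNAs, clone 67 was lowest for mir-17 at 8253 CPM, and clone 57 was highest for mir-92a at 125474 CPM. In BSdel clones with control shRNAs, clone 34 was lowest for mir-17 at 5721 CPM and for mir-18a at 2935 CPM.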

How the results depend on the processing

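Of 636 values of members recomputed under an alternative, 531 kept their direction, or moved within their error, and their side of the threshold. The mir-19a decrease on ERH knockdown over all clones was called in all 17 alternatives, from -1.35 to -0.77, or -1.38 to -1.10 without 1 clone. With spike-in scaling 4 called decreases turned: mir-17, mir-20a and mir-19b over all clones to 0.17, 0.16 and 0.029, and mir-92a in WT clones to 0.051. The number of members called on knockdown over all clones (4 as reported) was 1 with spike-in scaling, total counts, a mean of at least 100 counts, the second shRNA pair or no replicate block, 2 with no filter, and 1 to 5 without 1 clone. In WT clones (2) it was 0 with spike-in scaling or the second shRNA pair, 1 with total counts, the mean of 100 or no replicate block, 4 with the first pair or single libraries, and 1 to 2 without 1 clone. DESeq2 called 3 in WT clones, mir-17, mir-19b and mir-92a, but not mir-19a. In BSdel clones (2) it was 1 with spike-in scaling, total counts, the second pair or no replicate block, and 1 to 3 without 1 clone. For the deletion under control shRNAs (1) it was 0 with spike-in scaling, total counts, the mean of 100 or the second pair, 4 with single libraries, and 0 to 2 without 1 clone. For the interaction (0) it was 1 with the first pair and 0 to 1 without 1 clone. Of the ratios on knockdown (0), 1 passed with no replicate block, that of mir-19a. Causes were not tested. Single libraries of a clone are not independent, and lost calls without the block are not weaker effects. Every member had at least 6531 counts in every library; how many of these are amplification copies was not tested.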
